A study of Mus musculus with 6 samples.

Results

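The genes described here encode the mitochondrial breakdown of the branched-chain amino acids leucine, isoleucine and valine. They were the 10 genes *Bcat2*, *Bckdha*, *Bckdhb*, *Dbt*, *Bckdk*, *Ppm1k*, *Slc25a44*, *Ivd*, *Mccc1* and *Mccc2*, taken by name out of 47069 genes counted in the inguinal subcutaneous white adipose tissue (SC-WAT) of 6 female mice on a C57BL/6 J background, 2 weeks old. Of these mice 3 were Egr1+/+ (wild-type) and 3 were Egr1-/-, homozygous for an allele in which a *LacZ* insertion and a frameshift inactivate the zinc finger transcription factor EGR1. The allele is constitutive, so *Egr1* was inactivated in every cell type of the mouse and not in adipocytes alone. RNA was measured by ribosome-depleted, strand-specific RNA-sequencing of whole fat pads, 1 library per mouse, with the mice derived from intercrosses of heterozygotes.

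Branched-chain amino acids enter the mitochondrion, lose their amino group to a transaminase and are then decarboxylated by the branched-chain ketoacid dehydrogenase (BCKDH) complex, the committed step of the pathway. BCKDH is switched off when a dedicated kinase phosphorylates its alpha subunit, and switched on again by a dedicated phosphatase. Below this step the pathway splits into a leucine, an isoleucine and a valine branch, whose ends feed the citric acid cycle. Thermogenic adipocytes are known to oxidize these amino acids, and white adipocytes use them during differentiation.

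In Egr1-/- SC-WAT the 10 genes had mean levels slightly above those of Egr1+/+ SC-WAT, at most 1.35-fold in the fit, and none passed the test. The log2 fold changes lay between 0.14 for *Dbt* and 0.43 for *Ivd*, with a median of 0.26, while the median over the 17667 genes tested was 0.0011. A positive sign was found in 10 of the 10, against 50.1% of all tested genes. In edgeR's quasi-likelihood test 0 of the 10 had an adjusted p under 0.05, a threshold that 0.0170% of all tested genes passed, and the adjusted p-values ran from 0.343 to 0.765. At an unadjusted p under 0.05 there were 3 of the 10 (*Ivd*, *Mccc1* and *Bckdha*), against 5.06% of all genes for the same direction, and 0 of the 10 were lower at that threshold, against 5.60%. DESeq2 and limma-voom also called 0 members after adjustment, where DESeq2 called 2.63% of the genes it could adjust. At an unadjusted p under 0.05 DESeq2 had 4 members higher, against 4.6% of all genes, and limma-voom 3, against 4.93%. The unadjusted count was 0 without Egr1+/+ replicate 3 and 1 without Egr1-/- replicate 3, where 3.14% and 2.57% of all genes passed in that direction.

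**Figure D1:**
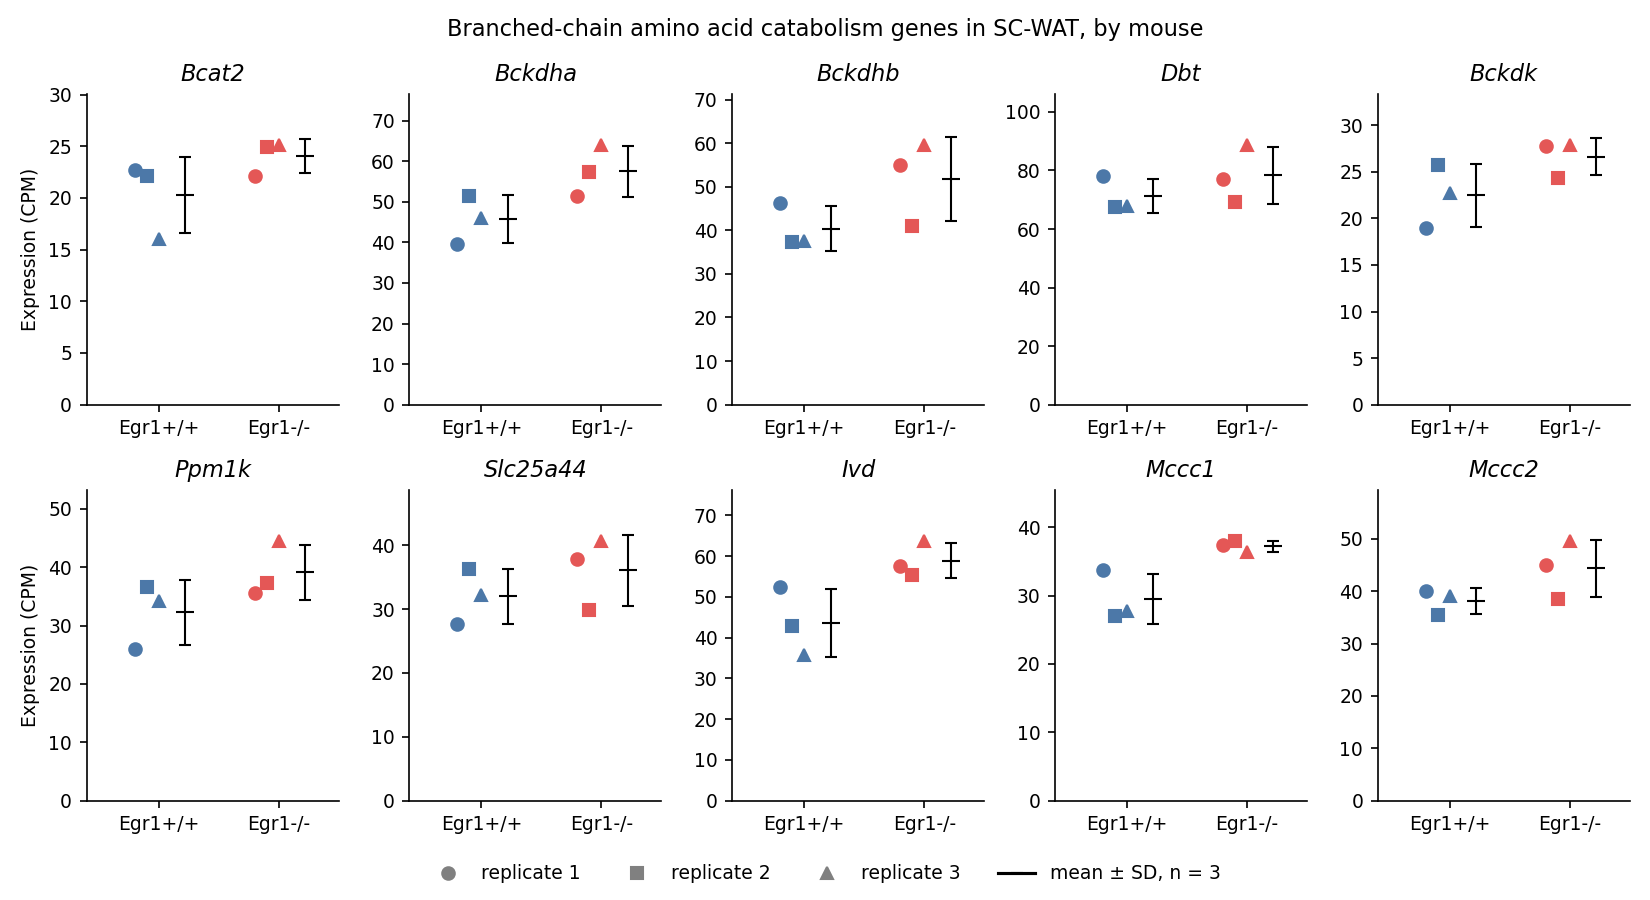
Expression of the 10 genes in each mouse, as CPM (counts scaled to a common library size, y axis, from 0), with blue symbols for Egr1+/+ and red for Egr1-/- mice and the bar giving mean ± SD of 3 mice. The groups do not overlap in *Ivd* and *Mccc1*, and they overlap in the other panels.

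The libraries held 29661984 to 42357981 gene counts, of which 50.0% to 66.3% were mitochondrially encoded. Each member had between 653 and 2931 counts per mouse. *Egr1* itself was at 8.02 to 16.5 CPM in Egr1+/+ mice and at 1.84 to 3.09 CPM in Egr1-/- mice, in the direction of the labels. With a log2 fold change of -2.19 (edgeR adjusted p = 0.0878), *Egr1* did not pass the threshold either. The 10 genes together took 0.0840% to 0.0881% of the counts outside the mitochondrial genome in Egr1+/+ mice and 0.102% to 0.115% in Egr1-/- mice. This share is itself a scaling to the non-mitochondrial total, so it depends on the other genes of a library. It did not overlap between the genotypes. Among single tested genes, on the CPM scale, 8.15% were separated upwards in the same way. In bulk tissue, more cells that express a gene and more RNA per cell cannot be told apart.

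The first steps are import and transamination. *Slc25a44* (GRCm38 chromosome 3, 88410498 to 88425139, minus strand) encodes the carrier that brings branched-chain amino acids into mitochondria. It was at 27.7, 36.3 and 32.2 CPM in Egr1+/+ replicates 1 to 3 and at 37.8, 29.9 and 40.6 CPM in Egr1-/- replicates 1 to 3. The groups overlapped, because Egr1-/- replicate 2 lay below 2 of the Egr1+/+ mice. The log2 fold change was 0.17 (standard error, SE, 0.150, 95% interval -0.17 to 0.51, edgeR adjusted p = 0.744). It was 0.06 without Egr1+/+ replicate 1, 0.27 without Egr1+/+ replicate 2, 0.30 without Egr1-/- replicate 2 and 0.08 without Egr1-/- replicate 3.

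*Bcat2* (chromosome 7, 45570153 to 45589711, plus strand) encodes the mitochondrial branched-chain aminotransferase. Its level was 22.7, 22.1 and 16.1 CPM in Egr1+/+ mice and 22.1, 24.9 and 25.09 CPM in Egr1-/- mice. Egr1+/+ replicate 3 stood apart at the low end, and the other Egr1+/+ mice were level with Egr1-/- replicate 1. From the fit, the log2 fold change of 0.24 (SE 0.149, 95% interval -0.09 to 0.58, edgeR adjusted p = 0.617) was 0.10 without Egr1+/+ replicate 3. *Bcat2* shares 15.9% of its exon bases with an annotated antisense RNA, and the strand setting of the counting is not given in the sources used here.

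*Bcat1* encodes the cytosolic aminotransferase, which catalyses the same reaction outside the mitochondrion. It was at 6.93, 7.56 and 5.94 CPM in Egr1+/+ mice and at 5.70, 3.23 and 3.75 CPM in Egr1-/- mice. Each Egr1-/- mouse was lower than each Egr1+/+ mouse, as in 8.10% of all tested genes, and the log2 fold change was -0.68 (SE 0.231, edgeR adjusted p = 0.330). The ratio of *Bcat2* to *Bcat1*, set together after their values were seen, was taken from log2 CPM with a prior count of 2. It was 3.26, 2.91 and 2.69 in Egr1+/+ mice, against 3.85, 7.60 and 6.60 in Egr1-/- mice. Markers of macrophages and of stromal progenitors were lower in the Egr1-/- mice as well, and their part in the level of *Bcat1* was not tested.

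The BCKDH complex is built from a decarboxylase of alpha and beta subunits around a transacylase core, with a dihydrolipoamide dehydrogenase that it shares with other complexes. *Bckdha* (chromosome 7, 25629946 to 25658981, minus strand) encodes the alpha subunit, the target of the kinase. It was at 39.6, 51.4 and 46.0 CPM in Egr1+/+ mice and at 51.4, 57.2 and 63.9 CPM in Egr1-/- mice. The groups met at the highest Egr1+/+ and the lowest Egr1-/- mouse. Fitted across all genes, the log2 fold change was 0.33 (SE 0.135, 95% interval 0.03 to 0.64, edgeR adjusted p = 0.429). *Bckdha* shares 61.7% of its exon bases with *B3gnt8* on the opposite strand, a gene that had 36 to 79 counts per mouse against 1362 to 1985 for *Bckdha*.

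*Bckdhb* (chromosome 9, 83925145 to 84124240, plus strand) encodes the beta subunit. Its 46.4, 37.4 and 37.4 CPM in Egr1+/+ mice stood against 54.9, 41.0 and 59.5 CPM in Egr1-/- mice. Egr1-/- replicate 2 fell within the Egr1+/+ range and the other Egr1-/- mice lay above it. In the fit, the log2 fold change was 0.36 (SE 0.160, 95% interval -0.0013 to 0.72, edgeR adjusted p = 0.469).

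*Dbt* (chromosome 3, 116513070 to 116549981, plus strand) encodes the transacylase core, which carries the lipoyl arm. It was at 77.9, 67.7 and 68.0 CPM in Egr1+/+ mice and at 77.2, 69.2 and 88.6 CPM in Egr1-/- mice, so that only Egr1-/- replicate 3 lay above all Egr1+/+ mice. Its log2 fold change, the smallest of the 10 with all mice, was 0.14 (SE 0.129, 95% interval -0.15 to 0.43, edgeR adjusted p = 0.765). It was 0.04 without Egr1-/- replicate 3 and 0.22 without Egr1-/- replicate 2. *Dld*, the shared dihydrolipoamide dehydrogenase, had 205 ± 60.3 CPM in Egr1+/+ and 269 ± 60.9 CPM in Egr1-/- mice (SD, n = 3 per genotype), a log2 fold change of 0.39 (SE 0.226, edgeR adjusted p = 0.595).

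Kinase and phosphatase set the activity of the complex. *Bckdk* (chromosome 7, 127904082 to 127910221, plus strand), the kinase, was at 19.0, 25.7 and 22.7 CPM in Egr1+/+ mice and at 27.7, 24.3 and 27.8 CPM in Egr1-/- mice. Egr1-/- replicate 2 was below the highest Egr1+/+ mouse, and the log2 fold change was 0.24 (SE 0.136, 95% interval -0.06 to 0.55, edgeR adjusted p = 0.581), or 0.12 without Egr1+/+ replicate 1. *Ppm1k* (chromosome 6, 57506502 to 57535468, minus strand), the phosphatase, was at 26.0, 36.6 and 34.2 CPM in Egr1+/+ mice and at 35.6, 37.3 and 44.4 CPM in Egr1-/- mice. Egr1+/+ replicate 1 was well below the rest, Egr1-/- replicate 3 well above, and the remaining mice were close together. For *Ppm1k* the log2 fold change was 0.28 (SE 0.152, 95% interval -0.07 to 0.62, edgeR adjusted p = 0.577), or 0.13 without Egr1+/+ replicate 1 and 0.18 without Egr1-/- replicate 3.

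The ratio of *Bckdk* to *Ppm1k* within a library does not depend on library size. Per kilobase of exon it was 1.19, 1.15 and 1.08 in Egr1+/+ mice, against 1.27, 1.06 and 1.02 in Egr1-/- mice. On the log2 scale its mean was 0.19 ± 0.0716 in Egr1+/+ and 0.15 ± 0.167 in Egr1-/- mice (SD, n = 3 per genotype). The difference of -0.03 was smaller than the spread between mice, and its sign changed when single mice were left out, from -0.13 to 0.03. On this length scale no mouse had less kinase than phosphatase RNA.

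The subunits were less even. The log2 ratio of *Bckdha* to *Bckdhb* per kilobase ran from -0.30 to 0.39 in Egr1+/+ mice and from -0.17 to 0.41 in Egr1-/- mice, with means of 0.10 ± 0.358 and 0.09 ± 0.292 (SD, n = 3 per genotype). In both genotypes replicate 1 had the lowest and replicate 2 the highest ratio. The log2 ratio of *Bckdhb* to *Dbt* had a mean of 0.07 ± 0.0632 in Egr1+/+ and 0.29 ± 0.135 in Egr1-/- mice (SD, n = 3 per genotype). Egr1-/- replicate 2, at 0.14, was level with the highest Egr1+/+ mouse.

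**Figure D2:**
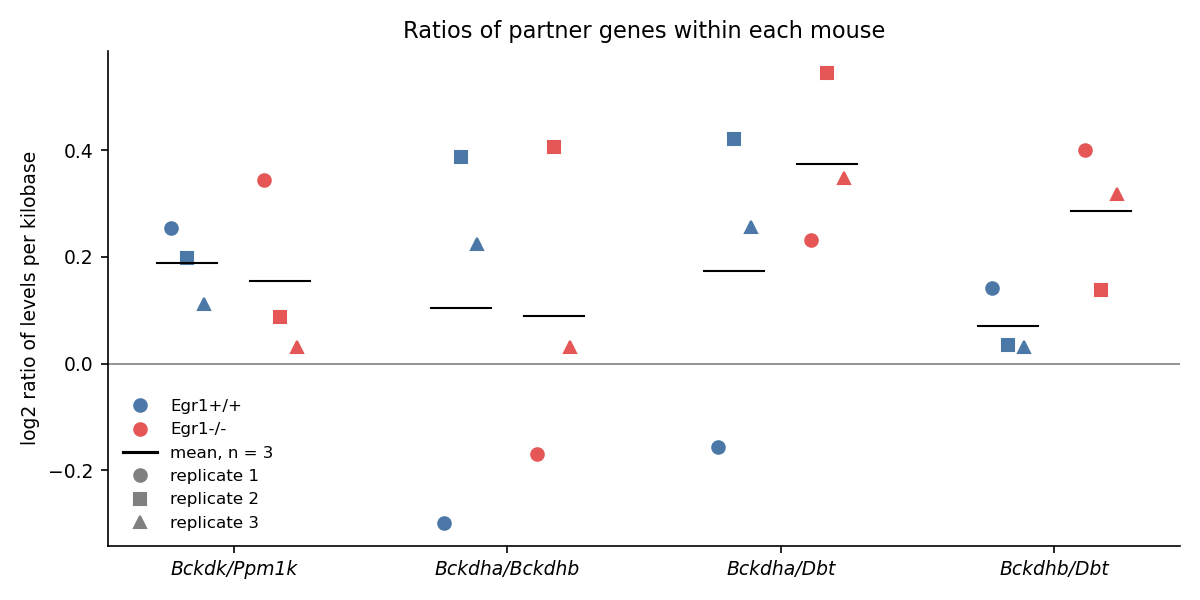
Log2 ratio of the exon-length-scaled levels of partner genes in each mouse (y axis), with blue for Egr1+/+, red for Egr1-/- and a bar for the mean of 3 mice. The *Bckdk* to *Ppm1k* ratios lie between 0.03 and 0.34, while *Bckdha* to *Bckdhb* spans -0.30 to 0.41.

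Leucine carbon then passes through isovaleryl-CoA dehydrogenase and the biotin-dependent methylcrotonyl-CoA carboxylase. Of their 3 genes 2 were separated upwards by genotype, against 8.15% of all tested genes. *Ivd* (chromosome 2, 118861954 to 118882909, plus strand) encodes the dehydrogenase, which hands its electrons to electron transfer flavoprotein. It was at 52.4, 42.9 and 35.8 CPM in Egr1+/+ mice and at 57.6, 55.3 and 63.6 CPM in Egr1-/- mice. Each Egr1-/- mouse was above each Egr1+/+ mouse (two-sided p = 0.1 by an exact permutation over mice, the lowest value possible with 3 against 3). From the fit, the log2 fold change of *Ivd* was 0.43 (SE 0.149, 95% interval 0.09 to 0.77, edgeR adjusted p = 0.343), a 1.35-fold difference. It was 0.30 without Egr1+/+ replicate 3 and 0.57 without Egr1+/+ replicate 1.

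*Mccc1* (chromosome 3, 35959312 to 36000678, minus strand) encodes the alpha, biotin-carrying subunit of the carboxylase. It was at 33.7, 27.0 and 27.8 CPM in Egr1+/+ mice and at 37.4, 37.9 and 36.4 CPM in Egr1-/- mice. The Egr1-/- mice lay close together, all above the Egr1+/+ mice (two-sided p = 0.1, likewise exact). Fitted across all genes, the log2 fold change was 0.34 (SE 0.118, 95% interval 0.07 to 0.60, edgeR adjusted p = 0.348). It was 0.28 without Egr1+/+ replicate 2 and 0.43 without Egr1+/+ replicate 1. Full separation upwards was thus seen in 2 of the 10 genes, against 8.15% of all tested genes.

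*Mccc2* (chromosome 13, 99948530 to 100015639, minus strand) encodes the beta subunit of the same enzyme. Its 40.0, 35.4 and 39.1 CPM in Egr1+/+ mice overlapped with the 44.9, 38.6 and 49.5 CPM in Egr1-/- mice through Egr1-/- replicate 2. In the fit, the log2 fold change was 0.22 (SE 0.124, 95% interval -0.06 to 0.50, edgeR adjusted p = 0.591), or 0.13 without Egr1-/- replicate 3.

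Levels of different genes were compared per kilobase of exon, as RPKM, which is CPM divided by exon length in kilobases. The highest were the 3 subunits of the BCKDH complex, *Bckdha* with 24.1 ± 3.10, *Bckdhb* with 22.4 ± 2.87 and *Dbt* with 21.3 ± 1.74 RPKM in Egr1+/+ mice (SD, n = 3), whose ranges overlapped. *Mccc2* followed at 13.6 ± 0.870 RPKM, apart from its neighbours on both sides. Next came *Slc25a44* (8.95 ± 1.20 RPKM) and *Ivd* (7.94 ± 1.52 RPKM). *Bckdk* (6.08 ± 0.912 RPKM), *Ppm1k* (5.36 ± 0.924 RPKM) and *Bcat2* (5.21 ± 0.942 RPKM) had lower means, but from *Slc25a44* down to *Bcat2* each gene overlapped in range with the next. *Mccc1* came last at 2.69 ± 0.337 RPKM, but its place depends on the length used. Its annotated exons add up to 10952 bases, and with the 2455 bases of its principal transcript it was at 12.0 ± 1.50 RPKM, next to *Ivd*. With principal transcripts *Bcat2* was at 11.5 ± 2.07 RPKM, the BCKDH subunits stayed highest, and *Bckdk* and *Ppm1k* became the lowest.

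The genes did not vary together as 1 block across the mice of a genotype. Among the Egr1+/+ mice, *Bckdha*, *Bckdk*, *Ppm1k* and *Slc25a44* were lowest in replicate 1 and highest in replicate 2. The other 6 genes were highest in replicate 1. Over the 6 mice the Pearson correlation of log2 CPM was 0.96 between *Bckdha* and *Ppm1k* and 0.94 between *Bckdhb* and *Dbt*, while it was 0.04 between *Slc25a44* and *Mccc1*. With the genotype means removed these coefficients were 0.95, 0.95 and -0.72, and the lowest of the 45 pairs was *Ppm1k* with *Mccc1* at -0.91. These coefficients share the libraries and their scaling and are given as a description. In Egr1-/- mice, replicate 3 was the highest for 9 of the 10, and replicate 2 the lowest for 6. Relative to the Egr1+/+ mean, the mean log2 level of the 10 genes was 0.26, 0.16 and 0.41 in Egr1-/- replicates 1 to 3 and between -0.06 and 0.05 in Egr1+/+ mice.

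The remaining genes of the pathway were taken from lists of its branches. Of 19 other genes of the leucine, isoleucine and valine branches and of propionyl-CoA disposal, 17 had a positive and 2 a negative log2 fold change, with a median of 0.26. After adjustment edgeR called 0 of the 19, while at an unadjusted p under 0.05 there were 6, all of them higher in Egr1-/- mice, against 5.06% of all genes. DESeq2 called 1 of them after adjustment, *Hadhb*, where 0.928% of the genes it could adjust were called higher. Without Egr1-/- replicate 3 the median of the 19 was 0.13 and that of the members 0.21, and without the 2 mice richest in skeletal muscle RNA they were 0.13 and 0.28.

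In the lower part of the leucine branch the log2 fold changes ran from -0.05 to 0.21, with 3 of 4 positive. *Acat1*, the mitochondrial thiolase that also serves isoleucine and ketone bodies, had a log2 fold change of 0.21 (edgeR adjusted p = 0.670) and *Auh*, the methylglutaconyl-CoA hydratase, one of 0.09 (edgeR adjusted p = 0.808). Of its 4 genes 0 had an unadjusted p under 0.05 in edgeR. In the isoleucine branch, 4 of 5 genes did, all higher, against 5.06% of all genes for that direction. They include *Hadha* and *Hadhb*, subunit genes of the mitochondrial trifunctional protein, while *Acat1* was counted with leucine. The counts for these branches thus depend on how the genes were listed. *Echs1* and *Hsd17b10* were also among the 4 (edgeR unadjusted p = 0.0266 and 0.0323). *Acat1* was not under 0.05 (edgeR unadjusted p = 0.183).

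*Hadhb*, the beta subunit of the mitochondrial trifunctional protein and better known from fatty acid oxidation, was at 186 ± 41.8 CPM in Egr1+/+ and 309 ± 58.7 CPM in Egr1-/- mice (SD, n = 3 per genotype). Its log2 fold change was 0.74 (SE 0.195, edgeR adjusted p = 0.236, DESeq2 adjusted p = 0.0101). *Echs1*, a short-chain enoyl-CoA hydratase, and *Hsd17b10*, a short-chain hydroxyacyl-CoA dehydrogenase, had log2 fold changes of 0.40 (edgeR adjusted p = 0.388) and 0.31 (edgeR adjusted p = 0.411). *Acadsb*, the acyl-CoA dehydrogenase more particular to isoleucine, was at -0.12 (SE 0.123, edgeR adjusted p = 0.783). It was chosen after its value was seen, since it is the gene of that list with a negative sign.

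In the valine branch all 4 genes had positive log2 fold changes, from 0.23 to 0.33, and 0 had an unadjusted p under 0.05 in edgeR. *Aldh6a1*, the methylmalonate-semialdehyde dehydrogenase, was at 0.33, *Hibadh*, the hydroxyisobutyrate dehydrogenase, at 0.29 and *Acad8*, the isobutyryl-CoA dehydrogenase, at 0.26 (edgeR adjusted p = 0.469, 0.490 and 0.547). Propionyl-CoA, the common product of isoleucine and valine, is carboxylated and rearranged to succinyl-CoA. All 6 genes of this route had a positive sign. At an unadjusted p under 0.05 there were 2 of them, against 5.06% of all genes for this direction. *Pcca*, the biotin-carrying subunit of propionyl-CoA carboxylase, had a log2 fold change of 0.45 (SE 0.168, edgeR adjusted p = 0.385). *Mmaa*, which serves the cobalamin cofactor of the mutase, was at 0.34 (edgeR adjusted p = 0.453) and *Mcee*, the methylmalonyl-CoA epimerase, at 0.37 (edgeR adjusted p = 0.494).

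**Figure D3:**
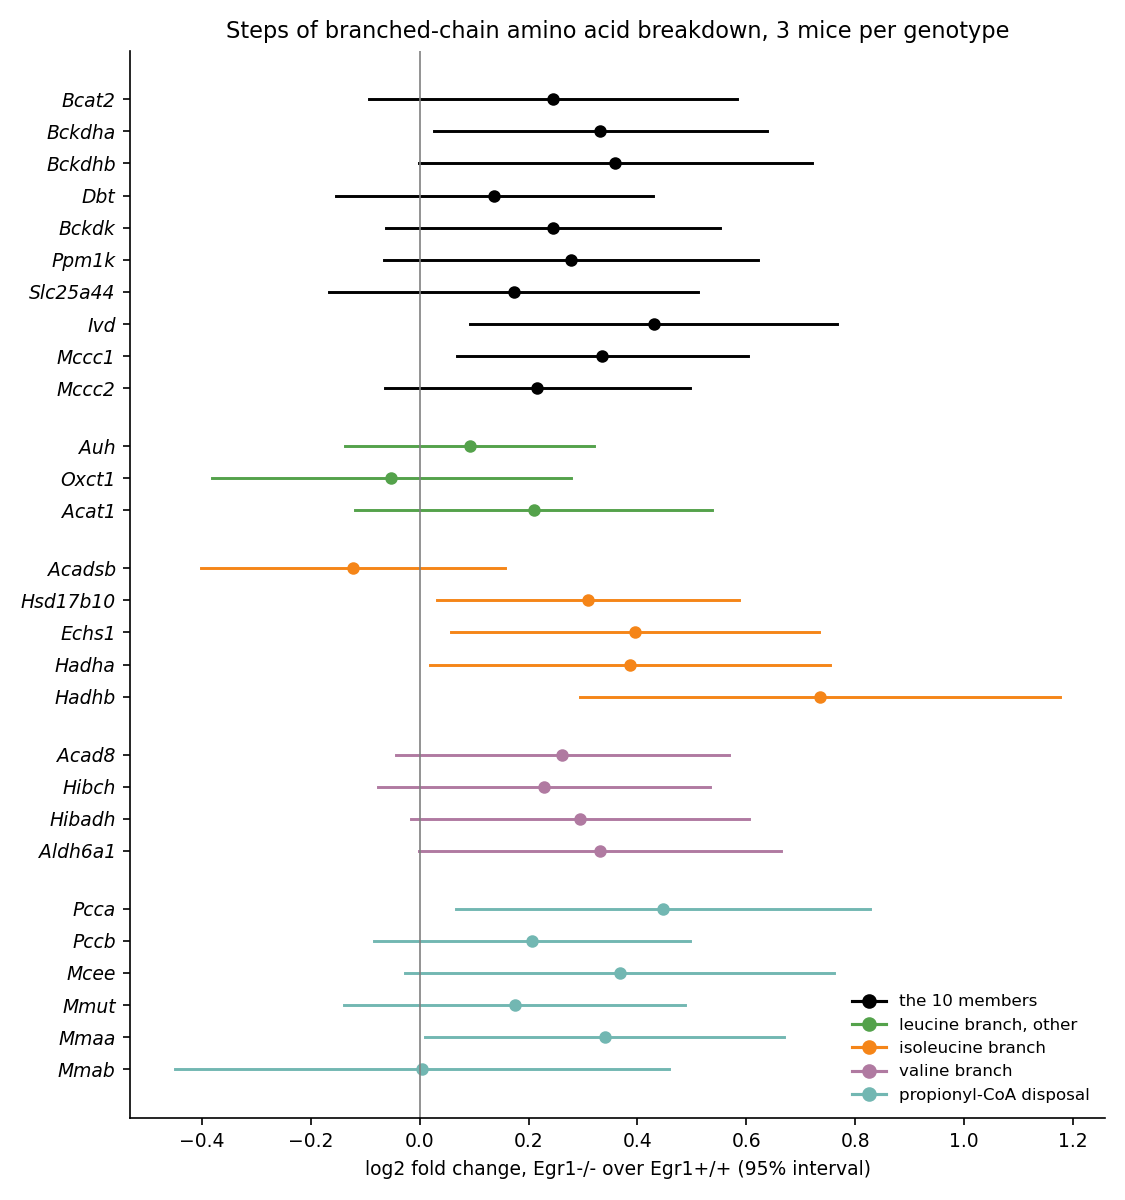
Log2 fold change of Egr1-/- over Egr1+/+ SC-WAT (x axis) for the 10 members (black) and further genes of the pathway (coloured by branch), with points for edgeR estimates and lines for 95% intervals. All 10 black points lie right of 0, from 0.14 to 0.43, with 3 intervals clear of 0.

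The acyl-CoA dehydrogenases of all 3 branches, *Ivd* among them, pass electrons to electron transfer flavoprotein. *Etfa* was at 172 ± 21.1 CPM in Egr1+/+ and 258 ± 47.0 CPM in Egr1-/- mice (SD, n = 3 per genotype), a log2 fold change of 0.58 (SE 0.160, edgeR adjusted p = 0.249). *Etfdh*, the oxidoreductase that accepts these electrons, had a log2 fold change of 0.57 (SE 0.172, edgeR adjusted p = 0.286). *Etfb*, the partner subunit, was at 0.62 (SE 0.216, edgeR adjusted p = 0.346). All 3 were higher in each Egr1-/- mouse than in each Egr1+/+ mouse. Such separation was seen in 4 of the 9 genes of their list, against 8.15% of all tested genes. In the whole list of cofactors and electron transfer, 7 of 9 genes had a positive sign, with a median of 0.38. After adjustment edgeR called 0 of the 9. At an unadjusted p under 0.05 there were 3, all higher, against 5.06% of all genes. DESeq2 called *Etfa* and *Etfdh* (adjusted p = 0.0213 and 0.0371), where 0.928% of the genes it could adjust were called higher. The 2 genes with a negative sign, chosen after their values were seen, were *Hlcs*, which attaches biotin to carboxylases such as methylcrotonyl-CoA carboxylase, at -0.18, and *Lipt2*, a lipoyl transferase, at -0.11.

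Genes for the entry of the amino acids into the cell were close to 0 or negative. Of 7 genes for cell entry and cytosolic transamination 6 were tested, with *Slc6a15* too low, and 5 of the 6, *Bcat1* and 4 transporters, had a negative log2 fold change. After adjustment edgeR called 0 of them, and 1, *Bcat1*, was lower at an unadjusted p under 0.05, as were 5.60% of all genes. *Slc7a5*, the light chain of a main leucine transporter, was at 2.82 ± 0.136 CPM in Egr1+/+ and 2.48 ± 0.244 CPM in Egr1-/- mice (SD, n = 3 per genotype), and *Slc3a2*, its heavy chain, at 28.7 ± 4.76 and 27.0 ± 0.936 CPM. Their log2 fold changes were -0.19 (95% interval -0.64 to 0.27) and -0.09 (95% interval -0.39 to 0.22).

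*Klf15*, a transcription factor known to drive branched-chain amino acid catabolic genes, was at 6.52, 13.7 and 7.61 CPM in Egr1+/+ mice and at 10.1, 12.8 and 10.7 CPM in Egr1-/- mice. Its highest value was in Egr1+/+ replicate 2, and the log2 fold change was 0.28 (SE 0.260, 95% interval -0.31 to 0.87, edgeR adjusted p = 0.760). *Ppargc1a*, a coactivator of mitochondrial genes, had a log2 fold change of 1.08 (SE 0.244, edgeR adjusted p = 0.193). *Ppara*, a nuclear receptor of fatty acid oxidation, was at 0.82 (SE 0.218, edgeR adjusted p = 0.236) and *Esrra*, the estrogen-related receptor alpha, at 0.36 (SE 0.144, edgeR adjusted p = 0.411). The first 2 of these were called by DESeq2 (adjusted p = 0.000979 and 0.0134), where 0.928% of the genes it could adjust were called higher. Of the 6 genes in this list, 5 had a positive sign and 3 an unadjusted p under 0.05. These 3 were all higher, as were 5.06% of all tested genes at that threshold.

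Promoter sequences from RefSeq (GRCm38.p6, 250 bases before to 50 after each start) were at hand for 8 of the 10 members, with 10 promoters in all. The letters GCGNGGGCG, the known binding consensus of EGR1, were searched on both strands. They occurred in 0 of the 10 promoters, against 5.56% of 32817 promoters of the same length. The letters TCAAGGTCA, the consensus of estrogen-related receptors, also occurred in 0 of the 10 (0.424% of all promoters). Its shorter core AGGTCA, a core shared by nuclear receptor sites and contained in the longer consensus, was found in 2 of the 10, those of *Bckdhb* and *Ppm1k*, against 16.3% of all. These stretches are shown because they are the matches among the members, with the match in capitals. The first lies on the plus strand at chr9:83925008-83925033 and the second on the minus strand at chr6:57535596-57535621, with the match starting 119 and 124 bases before the transcription start.
*Bckdhb*: gcgggccgccAGGTCAtagcgtctcc
*Ppm1k*: gcaatctgagAGGTCAaattgcctgt

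Among 62 other listed genes with a promoter, 6 held the EGR1 letters, *Hlcs* and *Suclg1* among them. The share of 5.56% over all promoters is not directly comparable, since a gene can have more than 1 promoter. The remaining 4 are shown with the match in capitals, since they are regulators or isoleucine branch genes whose levels are given above. *Klf15* (chr6:90462477-90462505), *Ppara* (chr15:85735661-85735689), *Hsd17b10* (chrX:152001788-152001816) and *Hadhb* (chr5:30155263-30155291) all lie on the plus strand. The match is on the opposite strand in *Hsd17b10* and downstream of the start in *Hadhb*.
*Klf15*: ccgaggcgggGCGGGGGCGcgtgacgcgc
*Ppara*: gagggcacgcGCGAGGGCGgggagccagg
*Hsd17b10*: aactgctcccCGCCCCCGCgacagccgct
*Hadhb*: ccgcccctcgGCGTGGGCGgacgtttgtc
A match is a description of the sequence, and no binding was measured in these files.

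The closest relatives of the BCKDH complex are the pyruvate and 2-oxoglutarate dehydrogenase complexes, which use the same *Dld* subunit. Of 13 genes for pyruvate dehydrogenase, its kinases and phosphatases and the pyruvate carrier, 11 had a positive sign, with a median log2 fold change of 0.34. Of 17 genes of the 2-oxoglutarate dehydrogenase complex and citric acid cycle, 17 had a positive sign, with a median of 0.55. At an unadjusted p under 0.05, 6 of 13 and 13 of 17 genes were higher, against 3 of the 10 members. Among all tested genes 5.06% were. After adjustment edgeR called 0 in each list. DESeq2 called 2, 9 and 0 of them higher, against 0.928% of the genes it could adjust. *Ogdh*, the counterpart of *Bckdha* and *Bckdhb* in the 2-oxoglutarate complex, had a log2 fold change of 0.74 (SE 0.178, edgeR adjusted p = 0.220), *Cs* one of 0.73 and *Mdh2* one of 0.64. In the pyruvate complex, *Dlat*, the counterpart of *Dbt*, was at 0.57 (SE 0.171, edgeR adjusted p = 0.285). *Pdk2* and *Pdp2*, a kinase and a phosphatase of that complex, were at 0.50 and 0.69 (edgeR adjusted p = 0.227 for both). The 2 genes of that list with a negative sign, chosen after their values were seen, were another kinase and another phosphatase. They were *Pdk3* at -0.16 and *Pdp1* at -0.29. The difference between the lists was not tested, since their genes are not replicates.

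**Figure D4:**
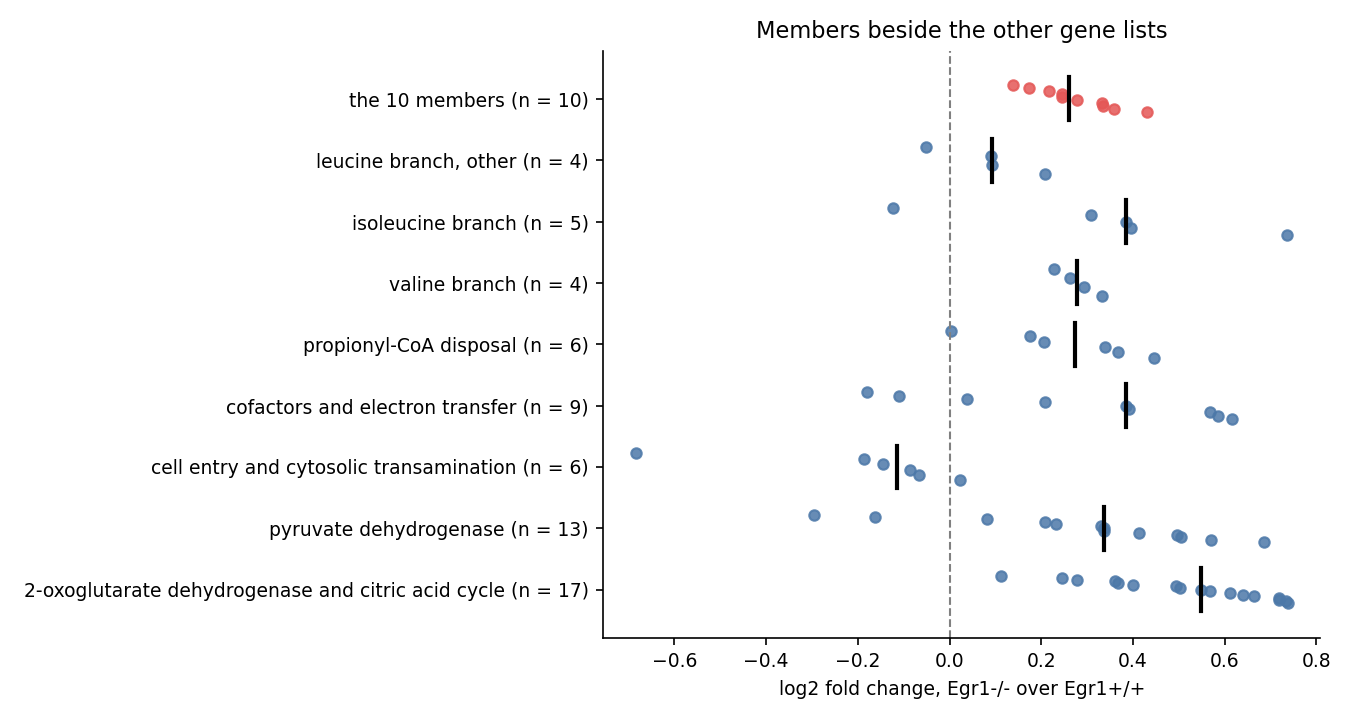
Log2 fold change of each tested gene (x axis) in the 10 members (red) and in 8 other lists (blue), with a black bar for the list median and a dashed line for the median of all tested genes. The members lie between 0.14 and 0.43, and the citric acid cycle list has its median at 0.55. The list of cell entry and cytosolic transamination has its median at -0.11 and runs from -0.68 to 0.02.

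The genes whose profile was most like the mean log2 CPM of the 10 members over the 6 mice were *Kcmf1*, *Sox6*, *Nampt*, *Lrg1* and *Gys1*, with Pearson correlations of 0.997, 0.997, 0.993, 0.992 and 0.990. *Gys1* encodes muscle-type glycogen synthase and *Nampt* an enzyme of NAD synthesis. Their log2 fold changes ran from 0.26 for *Kcmf1* to 0.80 for *Lrg1*, and a positive sign followed from the choice, since the mean of the members did not overlap between the genotypes. These 5 were the highest among all tested protein-coding genes, and they share the libraries and scaling with the members.

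Markers of cell types were read beside these results. The summed level of 7 adipocyte markers was 6584 to 7558 CPM in Egr1+/+ and 5248 to 6134 CPM in Egr1-/- mice. *Fabp4* made the largest part of it, with means of 3928 and 3430 CPM and overlapping groups. Of the 7 markers 5 had a negative log2 fold change and 2 a positive one, *Plin1* (0.11) and *Lipe* (0.36). The sum of 7 brown and beige adipocyte markers was 521 to 668 CPM in Egr1+/+ and 920 to 1539 CPM in Egr1-/- mice (919.6 at the lowest). Neither the brown and beige sum nor the mean level of the members overlapped between the genotypes. In the Egr1-/- mice both were highest in replicate 3 and lowest in replicate 2. In the Egr1+/+ mice both were lowest in replicate 3, but the sum was highest in replicate 1 and the members in replicate 2. *Ucp1* made the largest part of the sum, with means of 341 CPM in Egr1+/+ and 792 CPM in Egr1-/- mice. Among the Egr1+/+ mice *Ucp1*, *Cidea*, *Cox8b* and *Elovl3* were lowest in replicate 3. *Dio2* and *Ppargc1a* were lowest in replicate 2, and *Cox7a1* in replicate 1. The part of brown and beige adipocytes in the levels of the members was not tested. Stromal progenitor markers (6 genes) were lower in Egr1-/- mice, at 421 to 579 CPM against 779 to 839 CPM, and macrophage markers (5 genes) at 212 to 249 CPM against 279 to 363 CPM. Skeletal muscle, a tissue rich in *Bcat2*, varied most. Its 8 markers summed to 193 to 3274 CPM in Egr1+/+ and 79.8 to 2392 CPM in Egr1-/- mice, highest in Egr1+/+ replicate 2 and Egr1-/- replicate 3. With the muscle markers as a covariate the members' log2 fold changes ran from 0.16 to 0.48 (median 0.31). Without these 2 mice, an alternative added after the markers had been seen, they ran from 0.0043 to 0.36 (median 0.28), and 0 had an unadjusted p under 0.05 in edgeR, against 3.86% of all genes for the higher direction. *Dbt* was then at 0.0043, *Mccc2* at 0.08 and *Bckdhb* at 0.20. Endothelial markers (4 genes) at 299 to 396 and 291 to 434 CPM, lymphocyte markers (4 genes) at 52.5 to 58.5 and 46.9 to 114 CPM and mammary epithelial markers (6 genes) at 2.53 to 12.98 and 7.44 to 10.4 CPM overlapped between Egr1+/+ and Egr1-/- mice. No marker was at 0 in every mouse.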

How the data were processed

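The deposited values are raw counts per gene, 1 file per mouse, which the authors made with TopHat and Bowtie on GRCm38/mm10 (GENCODE M8) and with featureCounts. Strand and multimapping settings are not given in the sources used here. Symbols, coordinates and exon lengths came from GENCODE M21 (GRCm38), by identifier without version, which named 46488 of 47069 genes. Counts were tested in R 4.3.3 with edgeR 4.0.16 (TMM, filterByExpr, quasi-likelihood test, 17667 genes, Benjamini-Hochberg adjustment over all of them, threshold 0.05). Standard errors were taken as log2 fold change divided by the root of F, and 95% intervals use the fit's degrees of freedom. CPM use TMM-scaled library sizes, and log2 levels a prior count of 2. Alternatives used DESeq2 1.42.0 and limma 3.58.1. Exact permutation tests were two-sided. Library totals were 29661984 to 42357981 counts, and members had 653 or more counts per mouse.

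Groups came from the sample titles. Members and lists were chosen with earlier results of these data known. Named genes were the members, *Egr1*, *Dld*, *Bcat1*, *Klf15*, the 3 genes with the lowest p of each other pathway list, and the 5 most alike. A gene that this rule names is not reported here. Some mice shared a litter, so not all mice were independent.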

Additional observations from a re-analysis of the deposited data

How the results depend on the processing

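The number of members past the adjusted threshold was 0 in each of the alternatives run, and none of the 10 log2 fold changes changed sign. The median of the members lay between 0.21 and 0.31 when single mice were left out and ran from 0.26 to 0.31 over the other alternatives. The count of all tested genes past the threshold, 3 in the test reported, was 366 in DESeq2, 1 in limma-voom, 0 with upper-quartile normalization, 552 without a filter on low counts, 0 with the replicate block, 6 with the muscle covariate, 0 without the 2 mice richest in muscle RNA, and 0 to 59 with each mouse left out (59 without Egr1-/- replicate 1). At an unadjusted p under 0.05 the counts in edgeR were 1902 with upper-quartile normalization, 1909 with the block and 1568 without the 2 mice. The median of the 19 other pathway genes, 0.26, lay between 0.13 and 0.36 when single mice were left out, lowest without Egr1-/- replicate 3, and was 0.13 without the 2 mice. The cause was not tested.

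Replicate numbers did not mark litters in the sources. After removal of the genotype means, same-numbered mice had correlations of -0.0888, 0.106 and -0.126 over 17667 genes, so the numbers were not taken as pairs. With the replicate block, the members' log2 fold changes ran from 0.13 to 0.44 and the lowest adjusted p was 0.397 in edgeR.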
